A study of Mus musculus with 12 samples.

Results

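Skeletal muscle genes were followed in back skin of C57BL/6 mouse embryos at E18.5, late gestation. The set is a list of 41 genes for the contractile apparatus, excitation, energy supply and development of striated muscle. It was chosen with earlier results of these data known. A gene entered where a probe of it was detected (detection p under 0.05) on at least 3 of 12 arrays. Of the 41, 35 entered, among 11163 genes and unnamed probes tested in all. Myom2 and Trdn, which encode an M-band protein and a protein of the calcium release complex, had probes detected on 0 arrays. For Myh3, Neb, Mybph and Cacna1s the annotation used here names no probe. The 12 Illumina bead arrays form 4 groups of 3: embryos labelled type I keratin knockout, their own wild type (Wild type I), embryos labelled type II keratin knockout, and their own wild type (Wild type II). The labels used here name no alleles and do not say whether each array is a separate embryo, so that p-values measure only the spread between these arrays, which may be partly technical.

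Rodent skin has its own sheet of striated muscle, the panniculus carnosus, which lies beneath the dermis and the fat layer. A muscle fibre contracts when an action potential opens calcium channels, calcium binds troponin C on the thin filament, and myosin heads then pull on actin. Fast and slow fibres use different isoforms of many of these proteins, and fibres before birth use embryonic and perinatal myosins and a fetal acetylcholine receptor subunit. MyoD and myogenin, the factors that switch on muscle genes, bind the E-box, a short DNA element written CANNTG, in which N is any base.

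The promoters of 6 members, chosen after their values were seen, are printed: those of 4 that fell in the type II knockout (Ckm, Mylpf, Atp2a1 and Tnnc2) and of 2 slow-fibre members that were not called there (Tnnc1 and Myl3), because the muscle factors among the members act through such sites. Each is 300 bases around the annotated gene start, most of them upstream, from RefSeq (build GRCm38.p6), 5′ to 3′ on the gene's strand, with every CANNTG in capitals. Positions are chr7:19410844-19411143 on the plus strand for Ckm, chr7:127211358-127211657 on the plus strand for Mylpf, chr7:126463024-126463323 on the minus strand for Atp2a1, chr2:164779685-164779984 on the minus strand for Tnnc2, chr14:31208062-31208361 on the plus strand for Tnnc1 and chr9:110763428-110763727 on the plus strand for Myl3.
Ckm: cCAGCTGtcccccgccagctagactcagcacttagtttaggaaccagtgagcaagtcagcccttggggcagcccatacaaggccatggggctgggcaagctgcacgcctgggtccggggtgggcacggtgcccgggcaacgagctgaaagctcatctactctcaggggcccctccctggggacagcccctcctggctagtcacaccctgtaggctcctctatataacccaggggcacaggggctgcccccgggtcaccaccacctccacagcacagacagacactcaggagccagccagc
Mylpf: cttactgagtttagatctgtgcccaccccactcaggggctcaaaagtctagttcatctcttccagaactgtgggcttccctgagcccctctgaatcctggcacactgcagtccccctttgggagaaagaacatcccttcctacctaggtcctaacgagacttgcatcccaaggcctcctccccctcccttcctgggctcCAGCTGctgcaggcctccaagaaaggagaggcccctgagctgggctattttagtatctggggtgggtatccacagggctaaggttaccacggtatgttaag
Atp2a1: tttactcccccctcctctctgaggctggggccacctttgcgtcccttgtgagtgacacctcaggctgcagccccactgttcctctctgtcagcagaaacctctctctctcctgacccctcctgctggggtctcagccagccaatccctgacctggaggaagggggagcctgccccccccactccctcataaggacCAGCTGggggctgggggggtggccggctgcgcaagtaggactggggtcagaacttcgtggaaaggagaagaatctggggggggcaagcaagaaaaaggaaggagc
Tnnc2: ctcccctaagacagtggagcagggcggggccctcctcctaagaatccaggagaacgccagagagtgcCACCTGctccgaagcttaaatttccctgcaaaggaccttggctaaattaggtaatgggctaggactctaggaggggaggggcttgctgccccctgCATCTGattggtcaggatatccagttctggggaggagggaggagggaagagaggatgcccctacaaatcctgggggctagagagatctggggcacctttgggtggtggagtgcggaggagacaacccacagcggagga
Tnnc1: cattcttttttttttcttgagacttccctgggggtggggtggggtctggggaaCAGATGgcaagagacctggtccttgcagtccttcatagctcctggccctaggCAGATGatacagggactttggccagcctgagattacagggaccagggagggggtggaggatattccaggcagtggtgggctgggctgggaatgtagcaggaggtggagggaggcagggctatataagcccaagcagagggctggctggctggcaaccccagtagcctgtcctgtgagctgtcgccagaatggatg
Myl3: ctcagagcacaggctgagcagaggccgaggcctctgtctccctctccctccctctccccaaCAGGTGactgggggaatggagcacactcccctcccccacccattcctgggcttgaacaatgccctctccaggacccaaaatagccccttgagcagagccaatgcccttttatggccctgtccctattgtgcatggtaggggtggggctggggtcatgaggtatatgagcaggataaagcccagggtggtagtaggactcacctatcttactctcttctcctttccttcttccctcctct
The promoters of Ckm, Mylpf and Atp2a1 each hold 1 CANNTG, of the form CAGCTG, while those of Tnnc2, Tnnc1 and Myl3 hold other forms. Promoters of 25 of the 35 members were matched by symbol. CAGCTG, which reads the same on both strands and is 1 of the forms of CANNTG, was present in 13 of the 25 (52%) and in 16.1% of 27025 promoters of the same length. Any CANNTG was present in 23 of 25 (92%), against 72.1% of all promoters. By class, CAGCTG stood in 4 of 5 fast-fibre, 4 of 4 energy metabolism, 1 of 5 slow-fibre, 2 of 6 shared sarcomere, 1 of 3 developmental and 1 of 2 excitation and calcium promoters. A match is a description of letters and not a shown binding site.

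Probe signals were background-corrected, quantile normalised and put on a log2 scale, and each gene is represented by its brightest entered probe. Between 13272 and 13693 probes were detected per array. Keratins of the deleted clusters were counted where detected on all arrays of their wild type, 10 in each series. Of the 10 of the type I cluster, 9 were not detected on any type I knockout array and 9 were called lower. Of the 10 of the type II cluster, 6 were not detected on any type II knockout array and 9 were called lower. Of the cell type markers, 8 of 10 for keratinocytes and 12 of 12 for dermal fibroblasts entered. So did 8 of 10 for smooth muscle and 7 of 10 for adipocytes, so that entry alone does not test the tissue label. The type II knockout arrays were less alike than those of the other groups. They correlated at 0.962 to 0.975 over all genes, against lowest values of 0.983 in the type I knockout, 0.976 in Wild type I and 0.986 in Wild type II. Among the members, array 2 of the type II knockout was the lowest of its group for 33 of 35.

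Genes of skeletal muscle were lower in both knockouts, and 0 were called higher. Of 35 members, 12 fell and 0 rose in the type I knockout (limma, adjusted p under 0.05 over all genes, the threshold for a call), where 15.6% of all genes were called lower and 12.2% higher. Of the same 35, 25 fell and 0 rose in the type II knockout, where 21.8% of all genes were called lower and 15.7% higher. At an unadjusted p under 0.05 the counts were 23 lower and 0 higher in the type I knockout, and 29 lower and 0 higher in the type II knockout. No share of all genes was taken at that unadjusted threshold, here or below. Of the 35, 9 fell in both, which is 75% of the type I calls and 36% of the type II calls: Actn3, Tnnt3, Tnni2, Tnnc2, Atp2a1, Casq1, Sln, Ckm and Pgam2. In whole skin, fewer muscle cells and less RNA per muscle cell cannot be told apart.

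The median log2 fold change over the members was -0.84 in the type I knockout, where the median of all genes was -0.11, and -1.22 in the type II knockout, where it was -0.08. Below 0 lay 35 of 35 members in the type I knockout and 34 of 35 in the type II knockout. Of all 11163 genes, 6808 and 6312 lay below 0. In each series 27 of 35 members had all 3 knockout arrays below all 3 wild-type arrays, beside 28.5% of all genes in the type I series and 29.3% in the type II series. With cyclic loess in place of quantile normalisation the calls over all genes split into 1136 lower and 1661 higher in the type I knockout, and 1919 lower and 1970 higher in the type II knockout. With quantile normalisation the splits were 1742 and 1358, and 2436 and 1748. With median scaling the type II split was 2828 and 1237. Relative to the median of all genes, the member median was -0.73, -0.70 and -0.70 in the type I knockout under quantile, median and loess scaling, and -1.14, -1.15 and -1.11 in the type II knockout. Standard errors of the log2 fold changes had a median of 0.31 over the members and 0.17 over all genes. Summed over the members, linear intensity ran from 117675 to 126975 on the type I knockout arrays and from 157873 to 200866 on their wild type. It ran from 54917 to 102895 on the type II knockout arrays and from 146940 to 169994 on their wild type, and the ranges overlap in neither series.

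The count in the type I knockout differed with the arrays in the fit. It was 2 of 35 without Wild type I array 3 and 2 of 35 without type I knockout array 1, with Actn3 and Pgam2 called both times, and the median member change was then -0.60 and -0.79. It was 4 without type I knockout array 2 (median -0.79), 7 without its array 3 (median -0.92), and 25 when array 2 of the type II knockout was left out (median -0.84). The type II count stayed between 21 and 28 when any 1 array was left out, and was 23 without type II knockout array 2. Over all genes, 1018 to 2118 were called lower in the type I knockout with 1 array left out, and 1779 to 2623 in the type II knockout.

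**Figure D1:**
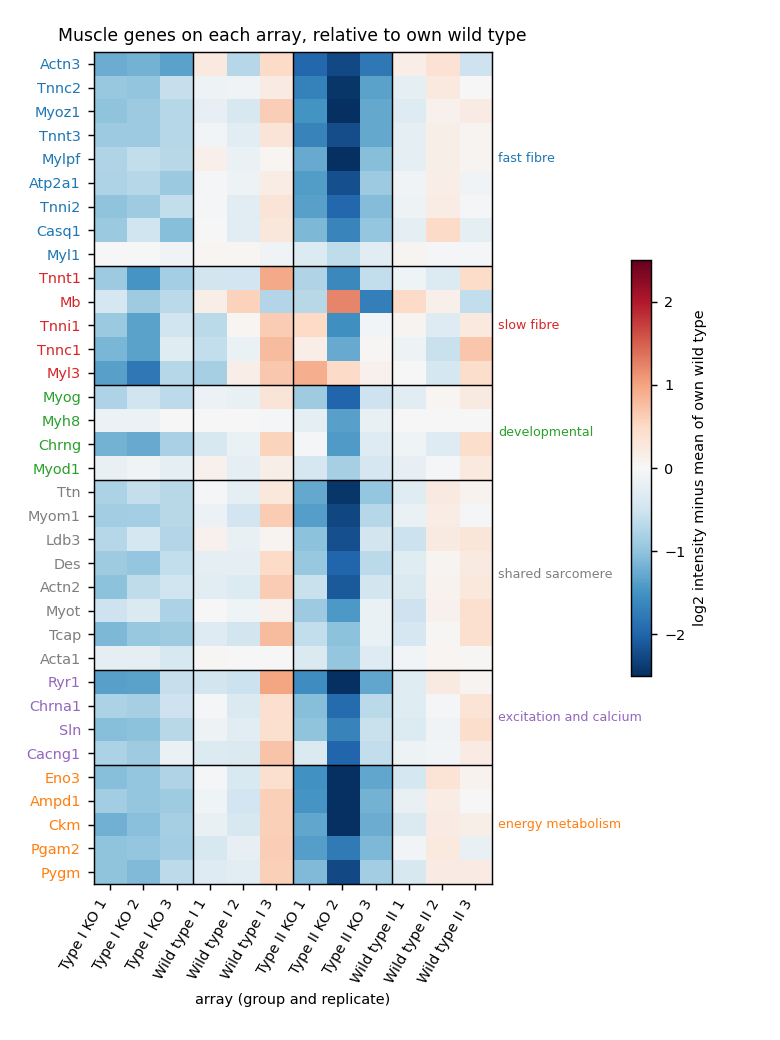
Heat map of the 35 members (rows, coloured by class) on the 12 arrays (columns), as log2 intensity minus the mean of the array's own wild-type group, with colours limited to 2.5 in either direction. Type II knockout array 2 is darkest blue in most rows, and Mb and Myl3 are the rows above 0 on that array.

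**Figure D2:**
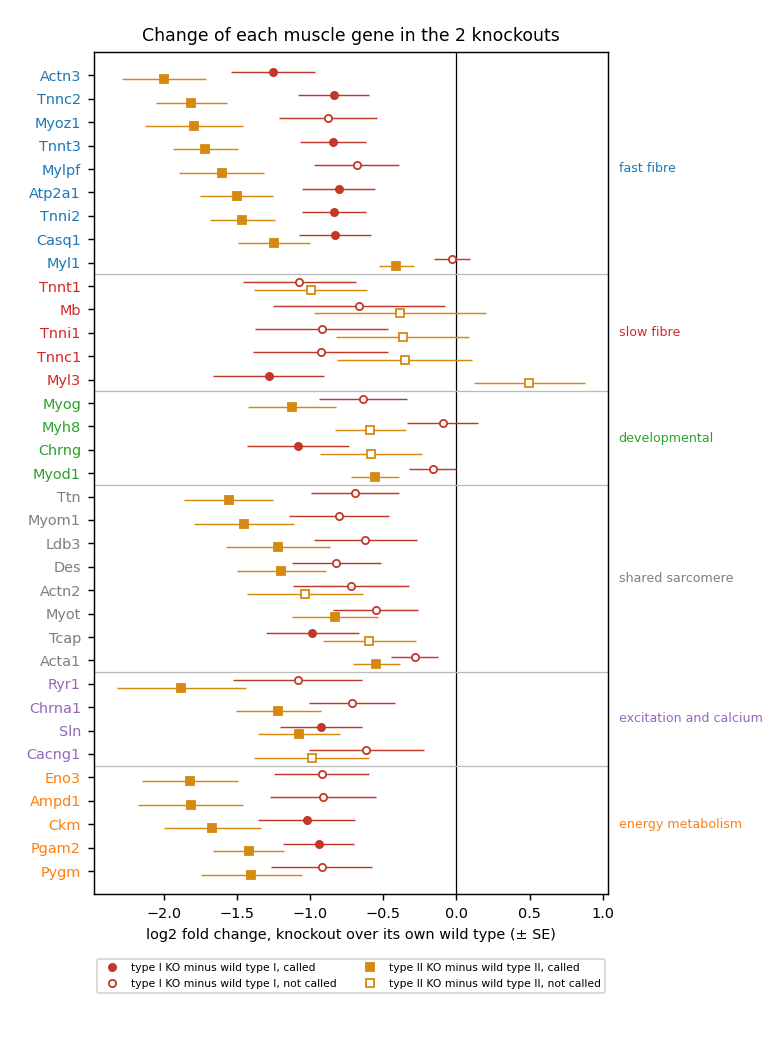
Log2 fold change ± SE (x axis) of each member (rows, by class) in the type I knockout (circles) and the type II knockout (squares), each over its own wild type with 3 arrays per group; filled symbols passed the threshold. All fast-fibre squares are filled and 0 of 5 slow-fibre squares are, where 21.8% of all genes were called lower.

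Of the 9 fast-fibre members, 6 fell in the type I knockout (median -0.84) and 9 in the type II knockout (median -1.61), by up to 4.01-fold for Actn3. Beside these counts, 15.6% and 21.8% of all genes were called lower. Actn3, the actin-anchoring alpha-actinin of fast fibres, read 7.40, 7.46 and 7.30 in the type I knockout, against 8.88, 7.93 and 9.12 in its wild type. It read 7.56, 7.25 and 7.73 in the type II knockout, against 9.68, 9.87 and 9.0 in its wild type. Its groups overlap in neither series, with log2 fold changes of -1.25 ± 0.29 in the type I knockout (adjusted p = 0.00802) and -2.0 ± 0.29 in the type II knockout (adjusted p = 0.0003). With the mean of its 3 entered probes in place of the brightest, the type I value was -0.82 (adjusted p = 0.0192).

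Troponin T3, I2 and C2, the fast forms of the subunits that bind tropomyosin, inhibit the filament and sense calcium, fell in both knockouts. Tnnt3 read 11.67, 11.68 and 11.88 in the type I knockout, against 12.53, 12.32 and 12.92 in its wild type. It read 10.64, 10.08 and 11.03 in the type II knockout, against 12.09, 12.44 and 12.38 in its wild type. Every knockout array lay below every wild-type array of its series, and the fall was 3.29-fold in the type II knockout (-1.72 ± 0.22, adjusted p = 0.000157) and 1.79-fold in the type I knockout (-0.84 ± 0.22, adjusted p = 0.016).

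Tnni2 read 12.68, 12.81 and 13.08 in the type I knockout, against 13.65, 13.41 and 14.02 in its wild type. It read 12.05, 11.46 and 12.33 in the type II knockout, against 13.27, 13.59 and 13.37 in its wild type. The groups do not overlap, and the log2 fold changes were -0.84 ± 0.22 and -1.47 ± 0.22 in the type I and type II knockouts. Tnnc2 read 12.81, 12.76 and 13.17 in the type I knockout, against 13.63, 13.66 and 13.96 in its wild type. It read 11.99, 11.25 and 12.35 in the type II knockout, against 13.44, 13.93 and 13.66 in its wild type. Here too the groups were apart, with -0.84 ± 0.25 in the type I knockout (adjusted p = 0.0247) and -1.82 ± 0.25 in the type II knockout (adjusted p = 0.000202). The adjusted p-values of Tnni2 were 0.0157 and 0.000419.

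Of the other fast-fibre members, Atp2a1, the calcium pump of the fast-fibre sarcoplasmic reticulum, fell by 0.81 in the type I and by 1.5 in the type II knockout on the log2 scale. Casq1, the calcium-storing protein of that reticulum, was dim, detected on 1 of 3 type I knockout and 2 of 3 type II knockout arrays, and fell in both, at -0.83 ± 0.25 and -1.25 ± 0.25. With no background correction these values were -0.27 (adjusted p = 0.0771) and -0.46 (adjusted p = 0.00697). Myoz1, a Z-disc protein of fast fibres, and Mylpf, the regulatory light chain of fast myosin, fell in the type II knockout (-1.80 ± 0.33 and -1.61 ± 0.29). The type I values were -0.88 ± 0.33 (adjusted p = 0.0695) and -0.68 ± 0.29 (adjusted p = 0.0989), although no knockout array reached a wild-type array.

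Several type I calls of these genes were lost when 1 array was left out, with log2 fold changes that stayed between -0.88 and -0.67. Tnnt3 was not called without Wild type I array 3 (adjusted p = 0.0606) or type I knockout array 1 (0.0545) or 2 (0.0523). Tnni2 lost its call without Wild type I array 3 (0.0595) or type I knockout array 1 (0.0611), and Tnnc2 without those (0.0789 and 0.0772) or type I knockout array 2 (0.0794). Atp2a1 lost it without any 1 of the 6 arrays of its series (adjusted p of 0.0546 to 0.0946). Casq1 lost it without Wild type I array 1 (0.0585) or 3 (0.0896) or type I knockout array 1 (0.0813) or 3 (0.0913). Mylpf and Myoz1 were called in the type I knockout without type II knockout array 2 (0.00336 and 0.0176).

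Of the 5 slow-fibre members, 1 fell in the type I knockout (median -0.93) and 0 in the type II knockout (median -0.37, with 1 of 5 lower at an unadjusted p under 0.05 by limma). The type I count (20%) is near the 15.6% of all genes called lower there, and 21.8% were in the type II knockout. With the number that opens the array titles, shared by knockout and wild type, as a block, Tnnt1, Tnni1 and Tnnc1 were called in the type I knockout too (adjusted p = 0.0096, 0.0394 and 0.00969), and Tnnt1 in the type II knockout (0.00923). Tnnt1, the slow troponin T, read 10.52, 9.95 and 10.58 in the type I knockout, against 10.96, 10.94 and 12.37 in its wild type. It read 9.92, 9.05 and 10.05 in the type II knockout, against 10.56, 10.33 and 11.13 in its wild type. The knockout arrays lay below the wild-type arrays in both series, at -1.08 ± 0.39 (adjusted p = 0.0562) and -1.0 ± 0.39 (adjusted p = 0.0611), outside the threshold in both.

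Tnni1, the slow troponin I, read 7.18, 6.76 and 7.61 in the type I knockout, against 7.42, 8.16 and 8.73 in its wild type. It read 7.19, 5.17 and 6.63 in the type II knockout, against 6.77, 6.38 and 6.95 in its wild type. Array 2 of the type II knockout was far below the others of its group, while array 1 was above all of its wild type. Tnnc1, the troponin C of slow fibres and heart, read 10.11, 9.91 and 10.96 in the type I knockout, against 10.64, 11.09 and 12.04 in its wild type. It read 9.76, 8.34 and 9.63 in the type II knockout, against 9.47, 9.03 and 10.29 in its wild type. The type II groups overlap for both, at -0.37 ± 0.46 for Tnni1 (adjusted p = 0.565) and -0.35 ± 0.46 for Tnnc1 (adjusted p = 0.586), and without type II knockout array 2 the values were 0.21 and 0.10. Their type I values were -0.92 ± 0.46 and -0.93 ± 0.46 (adjusted p = 0.15 and 0.154).

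Myl3, the essential light chain of slow myosin, was the slow-fibre member that fell in the type I knockout. It read 8.78, 8.35 and 9.41 in the type I knockout, against 9.30, 10.29 and 10.81 in its wild type. In the other series it read 8.37, 7.96 and 7.58 in the type II knockout, against 7.49, 7.02 and 7.90 in its wild type. The type I arrays of the 2 genotypes overlap by 1 knockout array, the type II arrays overlap too, and Myl3 was 2.44-fold lower in the type I knockout (-1.29 ± 0.38, adjusted p = 0.0265). Myl3 was also the 1 member above 0 in the type II knockout, at 0.50 ± 0.38 (adjusted p = 0.334). The type I call was lost without Wild type I array 2 (0.0771) or 3 (0.0997) or type I knockout array 1 (0.0742) or 2 (0.1).

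Tnnt1 was called in the type I knockout without Wild type I array 1 (0.0456) or 2 (0.0477) or type II knockout array 2 (0.0395). It was called in the type II knockout without Wild type I array 3 (0.0181) or type II knockout array 3 (0.0493). Tnni1 was called in the type I knockout without type II knockout array 2 (0.0483).

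**Figure D3:**
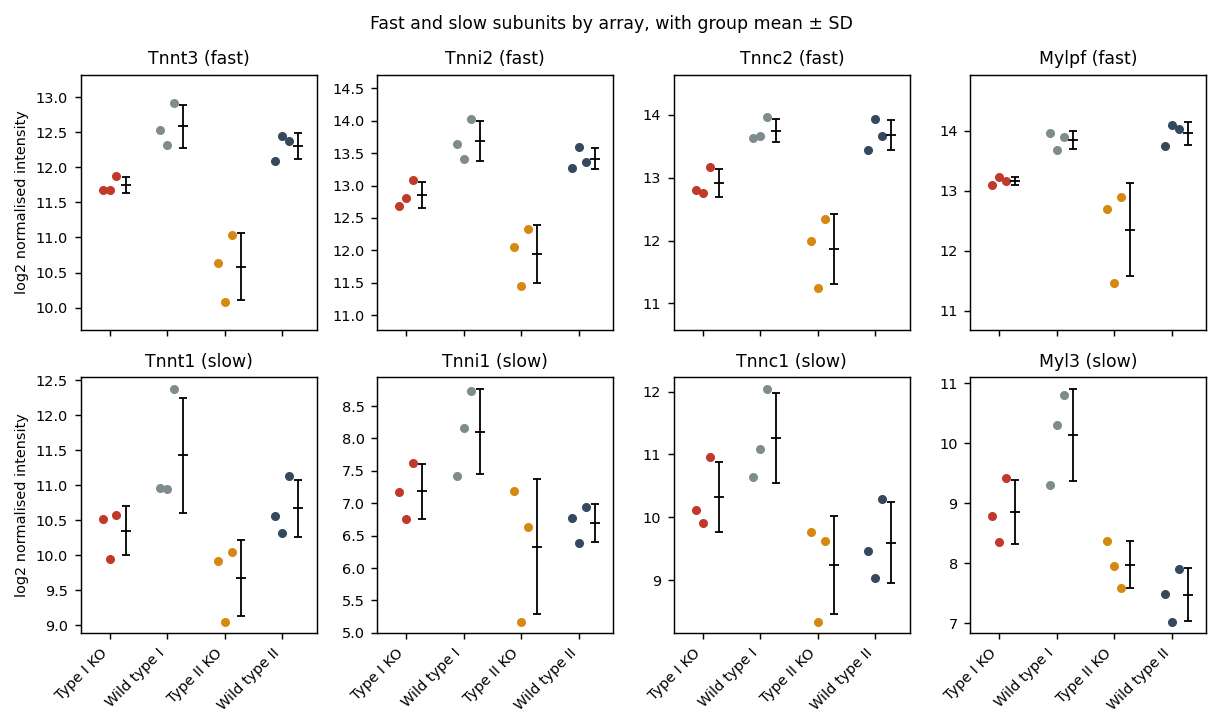
Log2 normalised intensity (y axis, its own range in each panel) of 4 fast-fibre subunits (top row) and 4 slow-fibre subunits (bottom row) by group (x axis); points are arrays and bars the mean ± SD of 3. All fast subunits of the type II knockout lie below their wild type, while Tnni1, Tnnc1 and Myl3 overlap with it.

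The fast and slow troponins were also set against each other within each array, as the change of the log2 ratio of the fast to the slow probe. In the type II knockout that change was -0.72 ± 0.27 for troponin T, -1.10 ± 0.48 for troponin I and -1.46 ± 0.49 for troponin C (± SE, n = 3 each), and all 3 knockout arrays lay below all 3 wild-type arrays for each pair. The type I changes were 0.23 ± 0.36, 0.08 ± 0.37 and 0.09 ± 0.36, with overlapping groups. A two-sided exact permutation test gave p = 0.1 for each pair in the type II knockout, the smallest that 3 arrays against 3 allow, and 0.2 after Benjamini-Hochberg adjustment over 6 tests. The exact permutation p in the type I knockout was 0.7, 0.7 and 0.9.

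Mb, or myoglobin, the oxygen-binding protein of oxidative fibres and heart, varied against the other members, most plainly on type II knockout array 2. It read 6.22, 5.77 and 5.98 in the type I knockout, against 6.81, 7.23 and 5.93 in its wild type. It read 6.01, 7.93 and 5.0 in the type II knockout, against 7.18, 6.84 and 6.09 in its wild type. Type II knockout array 2, the array with the lowest value of its group in 33 of 35 members, had the highest Mb of all 12 arrays. Mb was also the lowest of its group on array 3 of Wild type I, the type II knockout and Wild type II. On those arrays the mean over the members lay above its group mean, by 0.40, 0.38 and 0.13. The log2 fold changes were -0.67 ± 0.59 in the type I knockout and -0.39 ± 0.59 in the type II knockout (adjusted p = 0.429 and 0.642). The type II value without type II knockout array 2 was -1.21 (adjusted p = 0.0465), and without type II knockout array 3 it was 0.27.

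Over the 12 arrays, deviations of Mb from its group means ran against those of the other members (Pearson r of -0.94 with their mean), where the other 34 members had r between 0.27 for Myl3 and 0.99 for Myoz1. Each r is over arrays of 4 groups and is a description. The brown fat genes Cox7a1, Cox8b and Cidea, of which the first 2 encode respiratory chain subunits also made in muscle, were high on the same array; Cox7a1 and Cox8b also stand on the list of other muscle genes described further on. Cox7a1 read 6.69, 10.50 and 7.11 in the type II knockout, against 7.91, 8.59 and 8.07 in its wild type. Cidea, a lipid droplet protein, read 7.76, 10.61 and 7.55 in the type II knockout, against 6.52, 6.43 and 5.80 in its wild type. Cox8b read 8.91, 11.34 and 8.87 in the type II knockout, against 9.33, 9.82 and 9.99 in its wild type. All 3 were highest within the type II knockout on array 2, and Wild type I array 2 was highest of its group for Mb, Cox7a1, Cox8b and Cidea. The pattern was not particular to brown fat genes. Adipocyte markers Adipoq, Cidec, Pparg, Plin1, Lpl and Car3 also peaked on array 2 in both of these groups. Adipoq read 9.01, 11.12 and 9.24 in the type II knockout, and Cidec 5.09, 8.03 and 5.35. Lep, the remaining adipocyte marker, was detected on 0 type II knockout arrays and peaked on Wild type I array 2. Ppargc1a, a coactivator of mitochondrial genes and the other brown fat marker that entered, read 5.12, 5.13 and 5.53 in the type I knockout, against 5.95, 6.61 and 7.08 in its wild type. In the other series it read 5.04, 5.42 and 4.49 in the type II knockout, against 4.97, 5.18 and 5.13 in its wild type. Its highest Wild type I array was array 3, and it fell in the type I knockout (-1.28 ± 0.28, adjusted p = 0.00591). Ucp1, the defining brown fat gene, did not enter, nor did Prdm16 and Dio2. The part of brown fat or other fat in the Mb values was not tested.

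**Figure D4:**
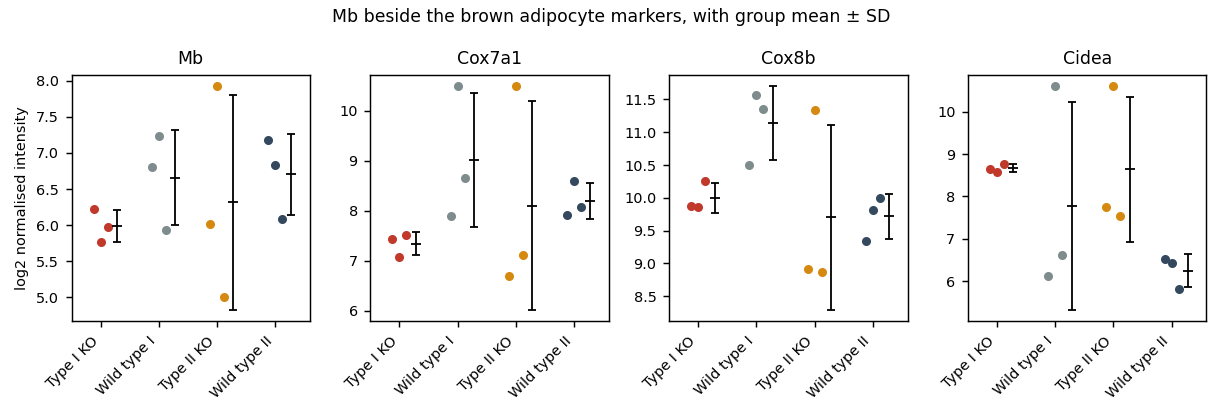
Log2 normalised intensity (y axis, its own range in each panel) of Mb and 3 genes of brown fat by group (x axis); points are arrays and bars the mean ± SD of 3. Type II knockout array 2 is the high point of its group in all 4 panels.

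Among developmental members, 1 of 4 fell in the type I knockout and 2 of 4 in the type II knockout, with medians of -0.40 and -0.59. Of all genes, 15.6% and 21.8% were called lower. Chrng, the fetal gamma subunit of the acetylcholine receptor, read 8.35, 8.29 and 8.72 in the type I knockout, against 9.13, 9.38 and 10.10 in its wild type. It read 8.22, 6.82 and 7.93 in the type II knockout, against 8.13, 7.91 and 8.69 in its wild type. Type I groups were apart and the gene fell there (-1.08 ± 0.35, adjusted p = 0.0376), while type II groups overlap (-0.59 ± 0.35, adjusted p = 0.21). The type I call was lost without any 1 of 6 arrays: Wild type I array 2 (0.0656) or 3 (0.135), type I knockout array 1 (0.101), 2 (0.106) or 3 (0.0525), or Wild type II array 1 (0.0503).

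Myog, or myogenin, which drives myoblasts into differentiation, read 6.39, 6.67 and 6.50 in the type I knockout, against 7.0, 6.98 and 7.49 in its wild type. It read 5.77, 4.68 and 6.15 in the type II knockout, against 6.39, 6.71 and 6.88 in its wild type. The groups do not overlap in either series, and Myog fell in the type II knockout (-1.13 ± 0.30, adjusted p = 0.0122), where it was detected on 2 of 3 arrays. The change without type II knockout array 2 was -0.71 (adjusted p = 0.0224), and with no background correction it was -0.47. Its type I value was -0.64 ± 0.30 (adjusted p = 0.135, and 0.0207 without type II knockout array 2). A dimmer second probe, detected on 8 arrays, was at 0.03 ± 0.16 and -0.17 ± 0.16 (adjusted p = 0.899 and 0.445).

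Myod1, which encodes MyoD, the factor that commits cells to muscle, read 5.51, 5.61 and 5.48 in the type I knockout, against 5.80, 5.45 and 5.84 in its wild type. It read 5.15, 4.73 and 5.15 in the type II knockout, against 5.36, 5.54 and 5.80 in its wild type. The type II groups do not overlap. Myod1 was close to the lowest detected signal, which was 4.94 to 5.02 by array, and fell in the type II knockout (-0.56 ± 0.16, adjusted p = 0.0186). That call was lost without Wild type II array 3 (0.0828) or type II knockout array 2 (0.0664), and the change was -0.18 with no background correction (adjusted p = 0.0557). Myod1 in the type I knockout was at -0.16 ± 0.16 (adjusted p = 0.488) with overlapping groups.

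Myh8, the perinatal myosin heavy chain, had its brightest probe at the top of the scale. It read 14.44, 14.44 and 14.60 in the type I knockout, against 14.60, 14.60 and 14.56 in its wild type. It read 14.37, 13.24 and 14.42 in the type II knockout, against 14.60, 14.60 and 14.60 in its wild type. The highest value on each array was 14.60, which bounds this probe from above, and its changes were -0.09 ± 0.24 and -0.59 ± 0.24 (adjusted p = 0.806 and 0.0768). Leaving out type II knockout array 1 or 3 gave an adjusted p of 0.0391 or 0.0257 in that series. Its dimmer probe read 12.56, 12.45 and 12.60 in the type I knockout, against 13.74, 13.49 and 14.10 in its wild type. In the type II series it read 12.32, 11.11 and 12.59 in the knockout, against 13.65, 13.84 and 13.80 in its wild type. On that probe the groups were apart and Myh8 fell in both knockouts, at -1.24 ± 0.30 and -1.76 ± 0.30 (adjusted p = 0.0106 and 0.000895, over 14744 probes fitted on their own, a fit chosen after the data were seen).

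Myl1, the essential light chain of fast myosin, also had a brighter probe near the top of the scale and a dimmer one. The brighter probe was at -0.03 ± 0.12 in the type I knockout (adjusted p = 0.877) and fell by 0.41 in the type II knockout (adjusted p = 0.0198). That call was lost without Wild type II array 1 (0.0742) or type II knockout array 2 (0.0644). The dimmer probe was at -0.92 ± 0.33 in the type I knockout (adjusted p = 0.061) and -1.54 ± 0.33 in the type II knockout (adjusted p = 0.00373). Of the members, 8 had several entered probes, 19 in all. Every probe lay below 0 for 7 of the 8 in the type I knockout, Myog being the exception, and for 8 of 8 in the type II knockout. With probes fitted on their own, 5 and 16 of the 19 were called lower. The share of all probes called lower in that fit was not taken, so these counts are not read as a result about the members.

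**Figure D5:**
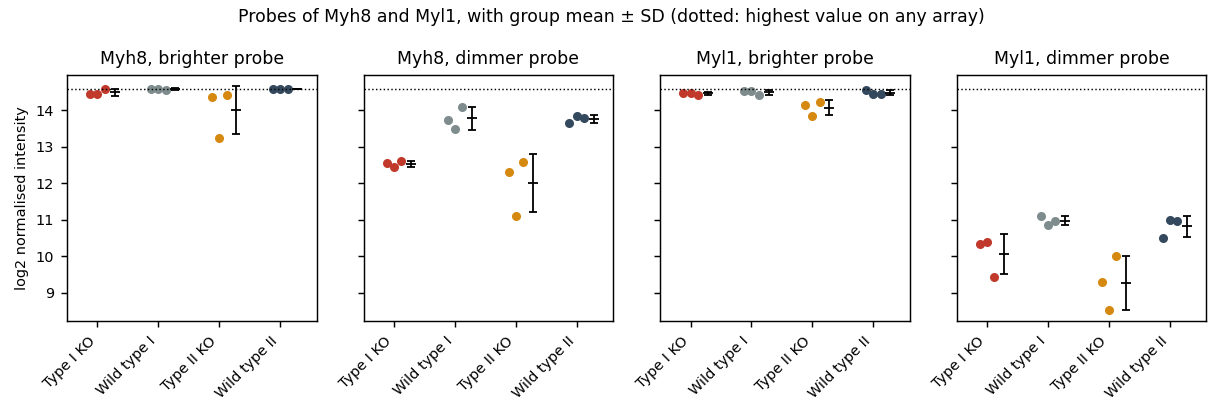
Log2 normalised intensity (y axis, shared) of the brighter and dimmer probe of Myh8 and of Myl1 by group (x axis); points are arrays, bars the mean ± SD of 3, and the dotted line the highest value on any array, 14.60. The brighter probes lie at or near the line, and the dimmer probes lie lower in both knockouts than in their wild types.

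Sarcomere genes shared by fast and slow fibres fell in the type II knockout in 6 of 8 cases (median -1.12), beside 21.8% of all genes. In the type I knockout 1 of 8 fell (12.5%, median -0.71), no more than the 15.6% of all genes called lower there. In the type I series all 8 had every knockout array below every wild-type array, beside 28.5% of all genes. Ttn, or titin, the spring that tethers myosin filaments to the Z-disc, read 11.10, 11.30 and 11.22 in the type I knockout, against 11.88, 11.67 and 12.16 in its wild type. It read 10.49, 9.34 and 10.81 in the type II knockout, against 11.47, 11.99 and 11.85 in its wild type. The groups were apart in both series, and titin fell 2.95-fold in the type II knockout (-1.56 ± 0.30, adjusted p = 0.00191), with -0.70 ± 0.30 in the type I knockout (adjusted p = 0.105).

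Myom1, or myomesin, which links thick filaments at the M-band, read 10.03, 10.06 and 10.20 in the type I knockout, against 10.75, 10.43 and 11.54 in its wild type. It read 9.30, 8.41 and 9.97 in the type II knockout, against 10.52, 10.87 and 10.65 in its wild type. It fell in the type II knockout (-1.45 ± 0.34, adjusted p = 0.00603), and its second probe was called in the type I knockout (-0.95 ± 0.32, adjusted p = 0.0442) where the brighter was at -0.81 ± 0.34 (adjusted p = 0.0992). Des, or desmin, the intermediate filament that ties muscle Z-discs together and is also made by smooth muscle, read 10.36, 10.28 and 10.65 in the type I knockout, against 11.01, 11.03 and 11.72 in its wild type. It read 9.86, 8.82 and 10.12 in the type II knockout, against 10.50, 10.87 and 11.03 in its wild type. Desmin arrays of the 2 genotypes were apart in both series, at -0.82 ± 0.31 (adjusted p = 0.0628) and -1.20 ± 0.31 (adjusted p = 0.00909).

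Ldb3, a Z-disc adaptor that binds alpha-actinin, read 6.30, 6.58 and 6.28 in the type I knockout, against 7.12, 6.82 and 7.08 in its wild type. It read 6.32, 5.15 and 6.90 in the type II knockout, against 6.82, 7.57 and 7.64 in its wild type. Type II knockout array 3 overlapped its wild type, and the change there was -1.22 ± 0.36 (adjusted p = 0.0178). Acta1, skeletal alpha-actin, whose probe was also near the top of the scale, fell by 0.55 in the type II knockout (adjusted p = 0.0184), and Myot, the Z-disc protein myotilin, by 0.83 (adjusted p = 0.042). Actn2, the alpha-actinin of all fibres and heart, was at -1.04 ± 0.40 in the type II knockout (adjusted p = 0.0585). Tcap, or telethonin, which caps titin at the Z-disc, was the member of this class that fell in the type I knockout (-0.99 ± 0.32, adjusted p = 0.0375), with -0.60 ± 0.32 in the type II knockout (adjusted p = 0.162). Acta1, Actn2, Myot and Ldb3 in the type I knockout were at -0.28, -0.72, -0.55 and -0.62, none of them called.

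Tcap lost its type I call without Wild type I array 3 (-0.59, adjusted p = 0.124) or type I knockout array 1 (0.107), 2 (0.0808) or 3 (0.0699). Without type II knockout array 2 the type II changes of Acta1 and Ldb3 were -0.34 and -0.74 (adjusted p = 0.041 and 0.0441). Their calls were lost without Wild type II array 2 (0.0577 and 0.0628) or 3 (0.0554 and 0.0658). Myot lost its type II call without Wild type II array 2 (0.111) or 3 (0.156), type II knockout array 1 (0.0978) or 2 (-0.53, 0.162), Wild type I array 1 (0.0549), 2 (0.053) or 3 (0.0507), or type I knockout array 1 (0.0557) or 2 (0.0525). Actn2 was called in the type II knockout without Wild type I array 3 (0.0463) or type II knockout array 1 (0.043) or 3 (0.028). Without type II knockout array 2, Ttn, Des and Myom1 were called in the type I knockout (0.0105, 0.0125 and 0.0343), and without array 3 Des and Myom1 were (0.0429 and 0.0486).

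Genes of excitation and calcium handling fell in 1 of 4 cases in the type I knockout (median -0.82) and in 3 of 4 in the type II knockout (median -1.15). The shares of all genes called lower were 15.6% and 21.8%. Ryr1, the calcium release channel of the sarcoplasmic reticulum, read 8.14, 8.17 and 8.92 in the type I knockout, against 9.04, 8.96 and 10.49 in its wild type. It read 7.69, 6.43 and 7.95 in the type II knockout, against 8.95, 9.46 and 9.31 in its wild type. The groups were apart in both series, and Ryr1 fell 3.69-fold in the type II knockout (-1.88 ± 0.44, adjusted p = 0.00576). The type I value was -1.09 ± 0.44 (adjusted p = 0.085). Of its 4 probes the dimmest, detected on 8 arrays, was at -0.54 ± 0.26 in the type II knockout (adjusted p = 0.132).

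Chrna1, the alpha subunit of the muscle acetylcholine receptor, which binds the transmitter, read 8.06, 8.03 and 8.33 in the type I knockout, against 8.81, 8.49 and 9.27 in its wild type. It read 7.47, 6.61 and 7.85 in the type II knockout, against 8.23, 8.49 and 8.87 in its wild type. The groups were apart, with -0.71 ± 0.29 in the type I knockout (adjusted p = 0.0878) and a fall of 1.22 in the type II knockout (adjusted p = 0.00658). Sln, or sarcolipin, a small inhibitor of the calcium pump, read 11.61, 11.66 and 11.97 in the type I knockout, against 12.54, 12.41 and 13.07 in its wild type. It read 11.11, 10.44 and 11.54 in the type II knockout, against 11.76, 12.01 and 12.55 in its wild type. Sarcolipin fell in both, at -0.93 in the type I knockout (adjusted p = 0.0297) and -1.08 in the type II knockout (adjusted p = 0.0106).

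Cacng1, the gamma subunit of the skeletal muscle calcium channel, read 7.07, 6.99 and 7.71 in the type I knockout, against 7.52, 7.51 and 8.58 in its wild type. It read 7.04, 5.43 and 6.79 in the type II knockout, against 7.28, 7.34 and 7.61 in its wild type. Type I groups overlap, and the changes were -0.62 ± 0.39 (adjusted p = 0.266) and -0.99 ± 0.39 (adjusted p = 0.0669). It was called in the type II knockout without Wild type I array 3 (0.0456) or type II knockout array 1 (0.0318). The type I call of Sln was lost without Wild type I array 3 (0.106) or type I knockout array 1 (0.092) or 2 (0.0837). Ryr1 and Chrna1 were called in the type I knockout without type II knockout array 2 (0.0414 and 0.029).

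Energy metabolism members all fell in the type II knockout, 5 of 5 with a median of -1.67, beside 21.8% of all genes called lower. In the type I knockout 2 of 5 fell, with a median of -0.92, beside 15.6% of all genes. All 5 had every knockout array below every wild-type array in both series, beside 28.5% (type I) and 29.3% (type II) of all genes. Pgam2, the muscle phosphoglycerate mutase of glycolysis, read 10.76, 10.82 and 10.91 in the type I knockout, against 11.37, 11.58 and 12.38 in its wild type. It read 10.06, 9.66 and 10.30 in the type II knockout, against 11.36, 11.67 and 11.25 in its wild type. It fell 1.92-fold in the type I knockout (-0.94 ± 0.24, adjusted p = 0.0136) and 2.68-fold in the type II knockout (-1.42 ± 0.24, adjusted p = 0.000874), and with Actn3 was 1 of 2 members called in the type I knockout under all 25 alternatives.

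Ckm, the muscle creatine kinase that buffers ATP, read 10.42, 10.59 and 10.81 in the type I knockout, against 11.44, 11.23 and 12.23 in its wild type. It read 9.92, 8.73 and 9.98 in the type II knockout, against 10.86, 11.42 and 11.36 in its wild type. Both falls passed the threshold, at -1.02 ± 0.33 (adjusted p = 0.0383) and -1.67 ± 0.33 (adjusted p = 0.00228). Eno3, the muscle enolase, read 11.49, 11.58 and 11.79 in the type I knockout, against 12.52, 12.17 and 12.95 in its wild type. It read 10.93, 9.78 and 11.14 in the type II knockout, against 12.01, 12.79 and 12.53 in its wild type. It fell 3.54-fold in the type II knockout (-1.83 ± 0.33, adjusted p = 0.00118) and was at -0.92 ± 0.33 in the type I knockout (adjusted p = 0.0529).

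Ampd1, the AMP deaminase of muscle, read 9.55, 9.45 and 9.54 in the type I knockout, against 10.32, 9.94 and 11.02 in its wild type. It read 9.42, 8.09 and 9.72 in the type II knockout, against 10.71, 11.09 and 10.89 in its wild type. It fell in the type II knockout (-1.82 ± 0.36, adjusted p = 0.00225), as did Pygm, the muscle glycogen phosphorylase (-1.40 ± 0.35, adjusted p = 0.00753). Ampd1 in the type I knockout was at -0.91 ± 0.36 (adjusted p = 0.0792) and Pygm at -0.92 ± 0.35 (adjusted p = 0.0652). Ckm lost its type I call without Wild type I array 1 (0.0553) or 3 (0.14), type I knockout array 1 (0.113), 2 (0.0893) or 3 (0.0596), or Wild type II array 3 (0.0505). Without type II knockout array 2, Eno3, Pygm and Ampd1 were called in the type I knockout (0.0101, 0.0174 and 0.0118), and without its array 3 Eno3 and Pygm were (0.0385 and 0.0492).

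The changes in the 2 knockouts were set against each other. Tested as the type II change minus the type I change, 0 of 35 members passed, beside 3.05% of all genes, and 4 lay lower and 1 higher at an unadjusted p under 0.05 (limma). All 9 fast-fibre differences were below 0 (median -0.75), from -0.97 for Tnnc2 (adjusted p = 0.175) to -0.38 for Myl1. All 5 slow-fibre differences were above 0 (median 0.55), from 0.08 for Tnnt1 to 1.78 for Myl3 (adjusted p = 0.112). Chrng (0.50) and Tcap (0.39) were the other members above 0.

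The 2 wild types were set against each other too. As Wild type II minus Wild type I, the median was -1.41 over the 5 slow-fibre members and -0.01 over the 9 fast-fibre members. Myl3 was the 1 of 35 members called, beside 1.54% of all genes, 6.32-fold lower in Wild type II (-2.66 ± 0.38, adjusted p = 0.00839), and it kept that call under all 22 alternatives that give this comparison. Tnnc1 was at -1.66 ± 0.46 (adjusted p = 0.103), Tnni1 at -1.41 ± 0.46 (adjusted p = 0.149) and Chrng at -1.29 ± 0.35 (adjusted p = 0.0936). The wild types belong to different series, and series and wild type cannot be told apart. Both knockout comparisons use these wild types, so the differences between the knockouts above carry them with opposite sign.

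Members varied together from array to array. After removing group means, the median correlation between 2 members over the 12 arrays was 0.75, against 0.000801 between all pairs of genes, as a description over arrays that share a group. Array 2 of the type II knockout was the lowest of its group for 33 of 35 members, with a mean of -1.76 relative to Wild type II, against -0.90 and -0.75 on arrays 1 and 3. Array 3 was the highest in Wild type I for 29 members and in the type I knockout for 22. Both of those arrays carry 2602 at the start of their titles and the other 4 of that series carry 2705, and the labels do not say what these numbers stand for.

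Within each such number the knockout was set against the wild type. In the type I series the median member difference was -0.66 for 2705, with 35 of 35 members below 0, and -1.10 for 2602, with 32 of 35. In the type II series it was -0.70 for 2794 with 31 of 35, -2.05 for 2818 with 33 of 35, and -0.91 for 2819 with 35 of 35. The number 2818 holds type II knockout array 2. With the number as a block, 21 and 30 of 35 members were called lower in the type I and type II knockouts, and with it as a random block 19 and 29. The shares of all genes called lower in these fits are not given here. Over all 25 alternatives, 1018 to 2831 genes were called lower in the type I knockout, and 1779 to 2828 in the type II knockout. The block added 9 calls in the type I knockout (Myoz1, Tnnt1, Tnni1, Tnnc1, Des, Ryr1, Chrna1, Eno3 and Pygm) and 5 in the type II knockout (Tnnt1, Myh8, Chrng, Actn2 and Cacng1), and ended none. Actn3, the member furthest down in both knockouts among the fast-fibre class, was at -0.98 and -1.81 within the 2 type I numbers and at -2.12, -2.62 and -1.27 within the 3 type II numbers.

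Muscle genes outside the 41 were also lower. The list of 90 such genes was drawn up with earlier results of these data known, so it is no independent check. Of these 90, 66 entered, and 27 fell and 0 rose in the type I knockout (median -0.74, 37 lower and 0 higher at an unadjusted p under 0.05 by limma). Of the same 66, 46 fell and 1 rose in the type II knockout (median -1.10). The shares of all genes called lower were 15.6% in the type I and 21.8% in the type II knockout, and those called higher 12.2% and 15.7%. The 6 with the smallest adjusted p in the type I knockout were Unc45b, Asph, Phka1, Usp13, Hhatl and Lrrc39. Unc45b, a chaperone of muscle myosin, fell by 0.89 (adjusted p = 0.00272) and was at -0.42 ± 0.17 in the type II knockout (adjusted p = 0.0702). Asph, whose gene also encodes the reticulum protein junctin, and Phka1, the muscle subunit of phosphorylase kinase, fell by 0.67 and 0.67. Usp13, Hhatl and Lrrc39 fell by 0.96, 1.37 and 0.76.

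The 6 with the smallest adjusted p in the type II knockout were Lrrc39, Usp13, Tmod4, Eef1a2, Ckmt2 and Pvalb. Pvalb, or parvalbumin, the calcium buffer of fast fibres, read 5.15, 7.54 and 6.71 in the type II knockout, against 9.10, 10.90 and 10.07 in its wild type. All knockout arrays were lower, a fall of 11.8-fold (-3.56 ± 0.56, adjusted p = 0.00055), with -1.57 ± 0.56 in the type I knockout (adjusted p = 0.0562). Eef1a2, the translation elongation factor form of muscle and neurons, fell by 2.10, Tmod4, a cap of thin filaments, by 1.82, and Ckmt2, the mitochondrial creatine kinase of muscle, by 1.46. Lrrc39, an M-band protein, fell by 1.38 and Usp13 by 1.40. Fbxo32, or atrogin-1, a ubiquitin ligase of muscle wasting, was the 1 gene of this list that rose, by 0.89 (adjusted p = 0.0264), and is named after its value was seen.

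The 10 genes whose deviations from their group means were most like the mean of the members over the 12 arrays were Anxa11, Myl4, Casq2, Itgb1bp2, Srpk3, Ncam1, Xirp1, Hoxc9, Prpf19 and Hspb3. Their r ran from 0.99 for Anxa11 to 0.97 for Hspb3, and 4 of the 10 are on the list of other muscle genes. Myl4, the embryonic and atrial myosin light chain, was at -0.86 ± 0.36 in the type I knockout (adjusted p = 0.089) and fell by 1.22 in the type II knockout (adjusted p = 0.0183). Anxa11, an annexin made in many cell types, was at -0.04 ± 0.26 and -0.18 ± 0.26 (adjusted p = 0.919 and 0.629), and was not called in either.

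Markers of other cell types were read on the same arrays. Over all genes, 15.6% were called lower and 12.2% higher in the type I knockout. In the type II knockout 21.8% were called lower and 15.7% higher. Adipocyte markers fell in 7 of 7 entered cases in the type I knockout (median -1.47) and in 6 of 7 in the type II knockout (median -1.81). Of the 7, Car3 also stands on the list of other muscle genes. Their summed intensity was 6528 to 7005 on type I knockout arrays and 10506 to 18842 on Wild type I arrays, and 5375 to 11955 on type II knockout arrays and 12469 to 16443 on Wild type II arrays. Dermal fibroblast markers fell in 9 and 7 of 12 cases (medians -0.49 and -0.52), with sums of 54103 to 63518 and 50939 to 63002 in the type I and type II knockouts, against 80833 to 85682 and 79572 to 83401 in their wild types. Keratinocyte markers outside the keratins rose in 5 of 8 cases in the type I knockout, and in 4 of 8 with 1 fall in the type II knockout. Their summed intensity was 42624 to 51512 in the type I knockout and 36068 to 36413 in Wild type I, and 21379 to 27359 in the type II knockout and 34125 to 39339 in Wild type II, so that in the type II series the sum was lower in the knockout while more single markers rose than fell. The part of these shifts in the muscle results was not tested.

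Of the smooth muscle markers, a tissue that also makes desmin, 1 of 8 entered fell in each knockout, with medians of -0.19 and 0.03. That is no more than the shares of all genes called lower, 15.6% and 21.8%. The summed intensity of these markers was 8384 to 8980 in the type I knockout and 9696 to 13944 in Wild type I. In the other series it was 9074 to 12098 in the type II knockout and 9799 to 11174 in Wild type II. Of 8 cardiac markers 3 entered, Myh6, Nppb and Myl7, and Nppa, Tnni3, Mybpc3, Tbx20 and Nkx2-5 did not. Myh6, the alpha heavy chain of cardiac myosin, fell in both knockouts (-1.13 ± 0.31 and -1.08 ± 0.31). Myl7, the atrial regulatory light chain, rose in both. It read 6.26, 6.19 and 6.75 in the type I knockout, against 4.66, 4.68 and 5.01 in its wild type. In the other series it read 6.94, 5.67 and 6.29 in the type II knockout, against 4.90, 4.58 and 4.54 in its wild type. Myl7 was detected on 1 of 3 Wild type I arrays and 0 of 3 Wild type II arrays. Set against the lowest detected signal, its type II rise was at least 2.53-fold. Nppb, the natriuretic peptide B, was called higher in the type II knockout (2.26 ± 0.77, adjusted p = 0.036), on arrays that read 5.61, 5.50 and 9.31, against 4.43, 4.62 and 4.59 in its wild type. Type II knockout array 3 was far above the other 2. Nppb was detected on 0 of 3 Wild type II arrays, and set against the lowest detected signal its mean rise was at least 3.61-fold.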

How the data were processed

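RNA of back skin from 12 samples was read on Illumina bead arrays. The authors deposited, per the file headers, an average bead intensity and a detection p-value per probe and array, not normalized. Their processed table, also deposited as intensity, has column medians of 16.3 to 16.4, with 25.2 to 25.3% of values below 0 and the same probe order as the bead intensity (Spearman 1), so its scale is linear and background-subtracted, while its method and the scanner software are not stated in the labels or headers. RNA was extracted with Trizol and RNeasy columns and labelled with an Ambion kit, per the labels' protocols.

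From the bead intensities, background was corrected by normexp with an offset of 16, taking the spread of negative controls from the detection p-values, and arrays were quantile normalised, which assumes like distributions and compresses the brightest probes. Values were put on the log2 scale. A probe entered if detected at p under 0.05 on at least 3 of 12 arrays (14744 of 25697 probes). Genes were named from GEO's platform annotation, which gives 1 symbol for 23978 probes and none for 1719, and were represented by their brightest probe. limma 3.58.1 in R 4.3.3 fitted 1 term per group over all 12 arrays, with 8 residual degrees of freedom and Benjamini-Hochberg adjustment over 11163 genes. The number of arrays limits the precision, and bead arrays give no counting interval.

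All members are named by class. Values per array are given for the troponins and for up to 4 members of each class with the smallest adjusted p, and up to 6 other muscle genes per knockout are named. The members and gene lists were chosen with earlier results of these data known. The fit was tested on simulated data for the type I comparison over 11163 genes, where 73% of 100 genes changed by 1 and 98% of 100 changed by 2 on the log2 scale were called, with 12 false calls. The changed genes were drawn at random and the noise was independent between genes. The members varied together (median correlation 0.75), with a median standard error of 0.31 against 0.17 over all genes. These rates therefore do not describe the members.

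Replicate numbers were given in accession order, but in the type II series and for array 3 of the type I series they coincide with the number that opens the titles of a knockout and a wild-type array. The labels do not say what that number marks, and the fit was made without it. Deviations of same-numbered arrays correlated at 0.168, 0.0589 and 0.359 in the type I series and 0.0823, 0.0279 and 0.141 in the type II series. Alternatives changed the background correction, scaling, filter, probe choice, array weights, blocks, arrays in the fit and value table.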

Additional observations from a re-analysis of the deposited data

Results flagged for a closer look

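Myl3, the essential light chain of slow myosin, lay on opposite sides of its wild-type mean in the 2 knockouts. Relative to the mean of the own wild type, all 3 type II knockout arrays were above 0 and all 3 type I knockout arrays below 0, and the type II change exceeded the type I change by 1.78 ± 0.54 on the log2 scale. The limma test of that difference gave an adjusted p of 0.112. Of 24 alternatives that give this comparison, 3 passed the threshold. The adjusted p was 0.0341 with array weights (a difference of 2.02), 0.0466 with the title number as a block, and 0.0359 without Wild type I array 1 (2.20). Over the 24, the limma adjusted p reached 0.249 and the difference ran from 1.45 to 2.20. Wild type II minus Wild type I was itself -2.66 ± 0.38 for this gene.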

How the results depend on the processing

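In the type I knockout the 12 members called lower became 5 with cyclic loess, 5 with no filter on dim probes, 24 with each series fitted on its own, 25 with array weights, 21 with the title number as a block and 19 with it as a random block. Leaving out 1 array gave 2 to 25 members, a median change of -0.96 to -0.60, 2114 to 3621 genes called and 1018 to 2118 genes called lower. All genes called there numbered 3100 and 4657 with array weights, and those called lower 1742, 1136 with cyclic loess and 2831 with array weights. Genes called lower are not given singly for the other settings. The type II count of 25 members stayed between 21 and 30 under all 25 alternatives. Members called higher stayed at 0 in both knockouts under those 25. For the difference between the knockouts, 341 genes and 0 members were called, against 827 and 2 with array weights, 545 and 1 with the title number block, 554 genes with the random block, and 171 to 674 genes and 0 to 2 members without 1 array. Between the wild types, 172 genes and 1 member were called, against 781 and 5 with array weights, 111 genes with no filter, 97 with the random block, and 40 to 250 genes and 1 to 3 members without 1 array. The cause of these moves was not tested.

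Values that changed sign, none of them called, were type II Tnni1 (0.21) and Tnnc1 (0.10) without type II knockout array 2, type II Mb (0.27) without type II knockout array 3, and the dimmer Myog probe in the type I knockout (0.034). Over all single arrays left out, the first 3 ranged from -0.80 to 0.21, -0.64 to 0.10 and -1.21 to 0.27. With the replicate number as a replicate block, 15 and 28 members were called lower in the type I and type II knockouts, 10 of the 12 and 25 of the 25 among them. The share of all genes called lower in that fit is not given here. Same-numbered arrays share a title number in both series. In the type I series arrays 1 and 2 of both genotypes all carry 2705, so pairing them by replicate number is arbitrary. Not every same-numbered pair correlated above 0.1, so pairing was not taken as shown. For arrays 1 and 2 of the type I series those correlations do not test the title number. Of the other single-gene values 1612 kept direction and side of the threshold, 103 passed it newly and 93 no longer passed. Signal over background limits Casq1, Myog, Myod1 and Ldb3, and the top of the scale limits Myh8, Myl1 and Acta1.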
